A study of Homo sapiens with 4 samples.

Results

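The genes described here are the KIF genes, which encode the kinesin motors, followed through the splicing of their exons in a human breast cancer cell line. Kinesins are motor proteins that hydrolyse ATP to move along microtubules or to take microtubules apart at their ends. Some carry vesicles, organelles and cilium components through the cytoplasm, and others build the mitotic spindle or organise the microtubule bundle between the daughter cells during cytokinesis. In dividing cancer cells the mitotic members are among the commonly expressed cell cycle genes, and alternative exons in the tails of several kinesins change what the motor binds.

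Members were the protein-coding genes of GENCODE release 29 whose symbol is KIF or KIFC followed by a number. Of 43 such genes, 29 had at least 1 skipped-exon event (an exon with its upstream and downstream neighbours) in the deposited tables of both groups. These were 93 of 45977 events and, after events with the same skipped exon were merged, 88 of 39120 distinct exons. All but 1 event matched through the skipped exon itself, and 1 KIF27 event matched through both flanking exons. A further 1 KIF event was listed only for the SSE mimetic group and 4 only for the scrambled group, and these were not used. KIF1BP meets the symbol rule but encodes a kinesin-binding protein and no motor.

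The cells were MDA-LM2, a derivative of the MDA-MB-231 breast cancer line selected for metastasis to the lung. Both groups were lipofected, one with an SSE mimetic RNA and the other with a scrambled oligo, with 2 samples in each, and no untransfected group was analysed here. The labels name neither the mimetic's sequence nor a dose or time, and leave unsaid whether the 2 samples were separate cultures. Libraries were made from total RNA treated with DNase, and splicing was summarised by MISO, a program that estimates from reads the fraction of a gene's transcripts that include an exon (Ψ, from 0 to 1).

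The authors' tables hold 1 summary for each group, with the 2 samples of the group already combined. There is therefore no replicate spread behind any value below, and the credible, binomial and ratio intervals, all 95%, cover counting error only. The groups differed in depth. Over all events, 431105 reads of the SSE mimetic group and 2039336 of the scrambled group were specific to inclusion or skipping, a ratio of 4.73. Over the KIF exons there were 1046 and 6467, a ratio of 6.18. Reads in an event's region that matched neither isoform made up 95.3% and 88.8% of reads over all events, and 92.0% and 79.3% over the KIF exons, in the SSE mimetic and scrambled groups respectively. The part of this gap in the values below was tested only where a recomputation is named. Of the markers of the line, CD44 had 1398 and 10893 exonic reads, ITGB1 had 1312 and 13715 and AXL had 226 and 1090. Of the epithelial markers, KRT8 had 289 and 951, CDH1 13 and 17 and GATA3 6 and 19. The blood genes PTPRC and CD3E had 12 and 17 and 27 and 29, and of the neuronal genes MAP2 had 119 and 149, STMN2 38 and 64 and SYN1 18 and 19. VIM, ESR1, EPCAM and KRT18 had no event with enough reads to be assessed.

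KIF23 held the 1 called change among the kinesins. Its product, also called MKLP1, is the motor of centralspindlin, which bundles the microtubules of the spindle midzone and is needed for cytokinesis. The exon concerned has 312 bases, or 104 codons, and lies on the plus strand of chromosome 15 from 69440768 to 69441079 (hg38). It is exon 18 of transcript KIF23-201, is coding in 3 protein-coding transcripts and is left out of 1, KIF23-202. The product with this exon is known as CHO1 and the one without it as MKLP1, and the exon is known for a region that binds actin filaments. The joined sequence below, from GENCODE 29 transcripts on hg38, is shown because reads across it mark skipping of the exon. The last 30 bases of exon 17 are in lower case and the first 30 of exon 19 in capitals, 5′ to 3′.
KIF23 exon 17 to exon 19: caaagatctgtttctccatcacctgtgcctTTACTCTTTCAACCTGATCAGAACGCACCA

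Ψ of this exon was 0.64 (0.48 to 0.79) under the SSE mimetic and 0.35 (0.31 to 0.40) under the scrambled oligo. The estimate was higher under the SSE mimetic and the intervals did not overlap. In the authors' deposited table the difference was 0.29 and the Bayes factor, the evidence for a difference relative to none, was 124.4.

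The reads behind these estimates fell unequally. Under the SSE mimetic, 54 reads were specific to inclusion, 7 to skipping, 57 were shared by both isoforms and 175 matched neither. Under the scrambled oligo the numbers were 248, 114, 432 and 656. The SSE mimetic group thus held 0.218 times the inclusion reads of the scrambled group, 0.132 times the shared reads and 0.0614 times the skipping reads. Inclusion reads made up 0.885 (exact binomial interval 0.778 to 0.953) of the inclusion and skipping reads under the SSE mimetic and 0.685 (0.634 to 0.733) under the scrambled oligo. The higher share of inclusion reads went with fewer raw KIF23 reads of every class, and fewest by ratio for skipping. These ratios were not adjusted for depth. Over all events the scrambled group held 4.73 times the inclusion and skipping reads of the SSE mimetic group, so a lower raw number alone is no loss.

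**Figure D1:**
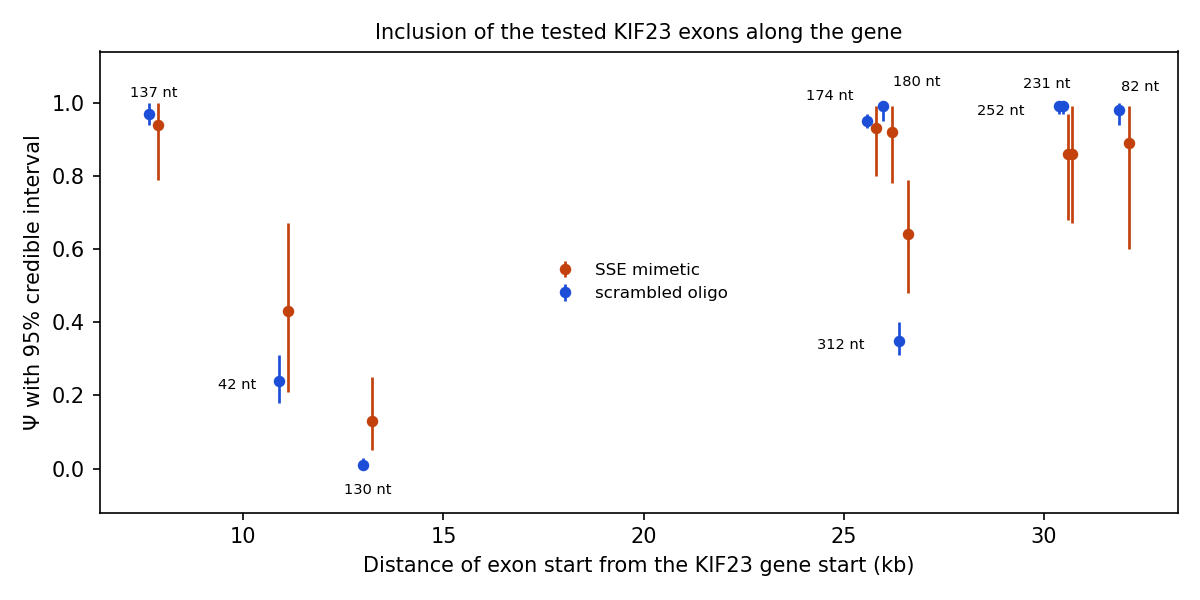
Ψ (vertical axis) of the 9 tested KIF23 exons against the distance of the exon's start from the gene's start in kilobases (horizontal axis), with bars for 95% credible intervals, orange for the SSE mimetic and blue for the scrambled oligo, shifted sideways for legibility. The intervals lie apart at the 312-nt exon (0.64 and 0.35) and at the 130-nt exon (0.13 and 0.01).

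For a call, an exon needed a Bayes factor of 10 or more and a Ψ difference of 0.1 or more in either direction, with 10 or more inclusion and skipping reads together in both groups. Of the 26 KIF exons that met this read minimum, in 11 genes, 1 was called higher under the SSE mimetic, 0 lower and 25 not. Of all 8228 tested exons, 3.1% were called higher, 0.887% lower and 3.99% in either direction. The KIF share, 3.85%, is near that background. Two-sided Fisher's exact tests of inclusion against skipping reads, adjusted by Benjamini-Hochberg over all tested exons, passed 0 KIF exons and 1.01% of all exons. For the KIF23 312-base exon Fisher's exact p was 0.00112 and 0.0758 after adjustment, above the threshold of 0.05. Without adjustment, 3 of the 26 KIF exons had p under 0.05 by Fisher's exact test, against 5.51% of all exons, and these were the 312- and 130-base exons of KIF23 and the KIF2C exon. Such a test compares the pooled libraries, not the conditions, and cannot pass an exon without a skipping read in either group.

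The difference at the KIF23 312-base exon was recomputed from the read classes with a model of inclusion and skipping. It was 0.281 on the deposited reads, 0.285 after reads expected from the density in the flanking introns were subtracted, and 0.276 with the scrambled reads scaled down to the depth of the SSE mimetic group. The exon was called in each, and the lowest Bayes factor of these, with scaled reads, was 20.2. Reads matching neither isoform, per kilobase of flanking intron, were 43.9 and 164 in the SSE mimetic and scrambled groups, a gap in the same direction as the exonic reads.

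The exons on either side of the 312-base exon were included in most messages of both groups. Upstream, the 180-base exon 17 had Ψ of 0.92 (0.78 to 0.99) and 0.99 (0.95 to 1.0). Downstream, the 252-base exon 19 had Ψ of 0.86 (0.68 to 0.97) and 0.99 (0.97 to 1.0), a difference of -0.13 with a Bayes factor of 0.6 in the authors' deposited table. A form of exon 19 that is 231 bases long, which overlaps it and shares its reads, had the same Ψ values and a Bayes factor of 0.52. Neither form had a skipping read in either group, with 39 and 409 inclusion reads for the longer form. These exons were not called. Where no read skips an exon, Ψ below 1 rests on the model's prior and on the balance of inclusion and shared reads, and its interval narrows with depth.

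A second KIF23 exon, of 42 bases (chr15:69425282-69425323), was also used in part of the messages. It is coding in 1 protein-coding transcript and skipped in 4, and is printed whole as the shortest tested KIF exon, with its last 3 bases in capitals.
KIF23 42-base exon: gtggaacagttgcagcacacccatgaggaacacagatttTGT

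Its Ψ was 0.43 (0.21 to 0.67) under the SSE mimetic, from 5 inclusion and 5 skipping reads, and 0.24 (0.18 to 0.31) under the scrambled oligo, from 45 and 99. The intervals overlapped and the exon was not called, with a Bayes factor of 0.7 in the authors' deposited table. With 10 isoform-specific reads under the SSE mimetic it stood at the read minimum.

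The 130-base exon of KIF23 (chr15:69427370-69427499), named after its values were seen, occurs only in a transcript marked for nonsense-mediated decay, the pathway that removes messages with early stop codons. Its Ψ was 0.13 (0.05 to 0.25) and 0.01 (0.00 to 0.03), from 5 reads for inclusion and 16 for skipping in the SSE mimetic group, against 2 and 88 in the other. The intervals did not overlap. The authors' deposited table gives it a Bayes factor of 5.97, under the threshold, and Fisher's exact p was 0.00255, or 0.13 adjusted over all tested exons. In place of 0.12, the recomputed difference was 0.111 on the deposited reads and 0.0531 after subtraction of the flanking intron read density. The remaining tested KIF23 exons, of 82, 137 and 174 bases, ranged in Ψ from 0.89 to 0.94 under the SSE mimetic and from 0.95 to 0.98 under the scrambled oligo.

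Among the other mitotic kinesins, KIFC1 and KIF2A had the alternative exons with the most nearly balanced use. KIFC1 is a minus-end-directed motor that gathers spindle poles, and it is known for clustering extra centrosomes in cancer cells. Its 123-base exon, coding in 1 transcript and skipped in 1, is on the plus strand at chr6:33400392-33400514. It is shown because both isoforms were present in both groups, with its last 3 bases in capitals.
KIFC1 123-base exon: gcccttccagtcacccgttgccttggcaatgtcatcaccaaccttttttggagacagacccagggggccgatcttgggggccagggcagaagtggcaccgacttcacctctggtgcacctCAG

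Ψ of the KIFC1 exon was 0.41 (0.23 to 0.61) under the SSE mimetic and 0.24 (0.17 to 0.31) under the scrambled oligo. There were 14 inclusion and 9 skipping reads in the first group and 49 and 49 in the second. The intervals overlapped, and the Bayes factor was 0.89 in the authors' deposited table.

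KIF2A depolymerises microtubules at spindle poles and in neurons. Its 203-base exon (chr5:62308309-62308511), partly coding and partly untranslated, had Ψ of 0.50 (0.27 to 0.73) under the SSE mimetic and 0.32 (0.21 to 0.46) under the scrambled oligo. Inclusion and skipping reads were 13 and 4 in the first group and 27 and 23 in the second, and the Bayes factor was 0.73 in the authors' deposited table. The intervals overlapped. A later KIF2A exon of 114 bases was nearly always skipped, with Ψ of 0.06 and 0.03.

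KIF2C, or MCAK, removes wrongly attached microtubules at kinetochores. Its 123-base exon had the most inclusion and skipping reads of any tested KIF exon under the SSE mimetic, 158, against 818 under the scrambled oligo. Ψ was 0.93 (0.87 to 0.97) and 0.98 (0.97 to 0.99), with 6 skipping reads among 158 and 7 among 818. The difference of -0.05 was under the minimum of 0.1, and Fisher's exact p was 0.0105, or 0.345 adjusted over all tested exons. Single exons of KIF14, a cytokinesis motor, and KIF20A, which carries the chromosome passenger complex to the midzone, had no skipping read under the SSE mimetic and Ψ of 0.88 and 0.84. Under the scrambled oligo their Ψ was 0.97 and 0.91.

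As a list, 16 mitotic and cytokinesis kinesins had 20 exons, of which 15 in 6 genes were tested. Of these, 1 was called higher, 0 lower and 14 not, or 6.67% called against 3.99% of all tested exons. None passed the adjusted Fisher's exact test, against 1.01% of all exons, and the median difference in Ψ was -0.03, equal to the median over all tested exons.

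**Figure D2:**
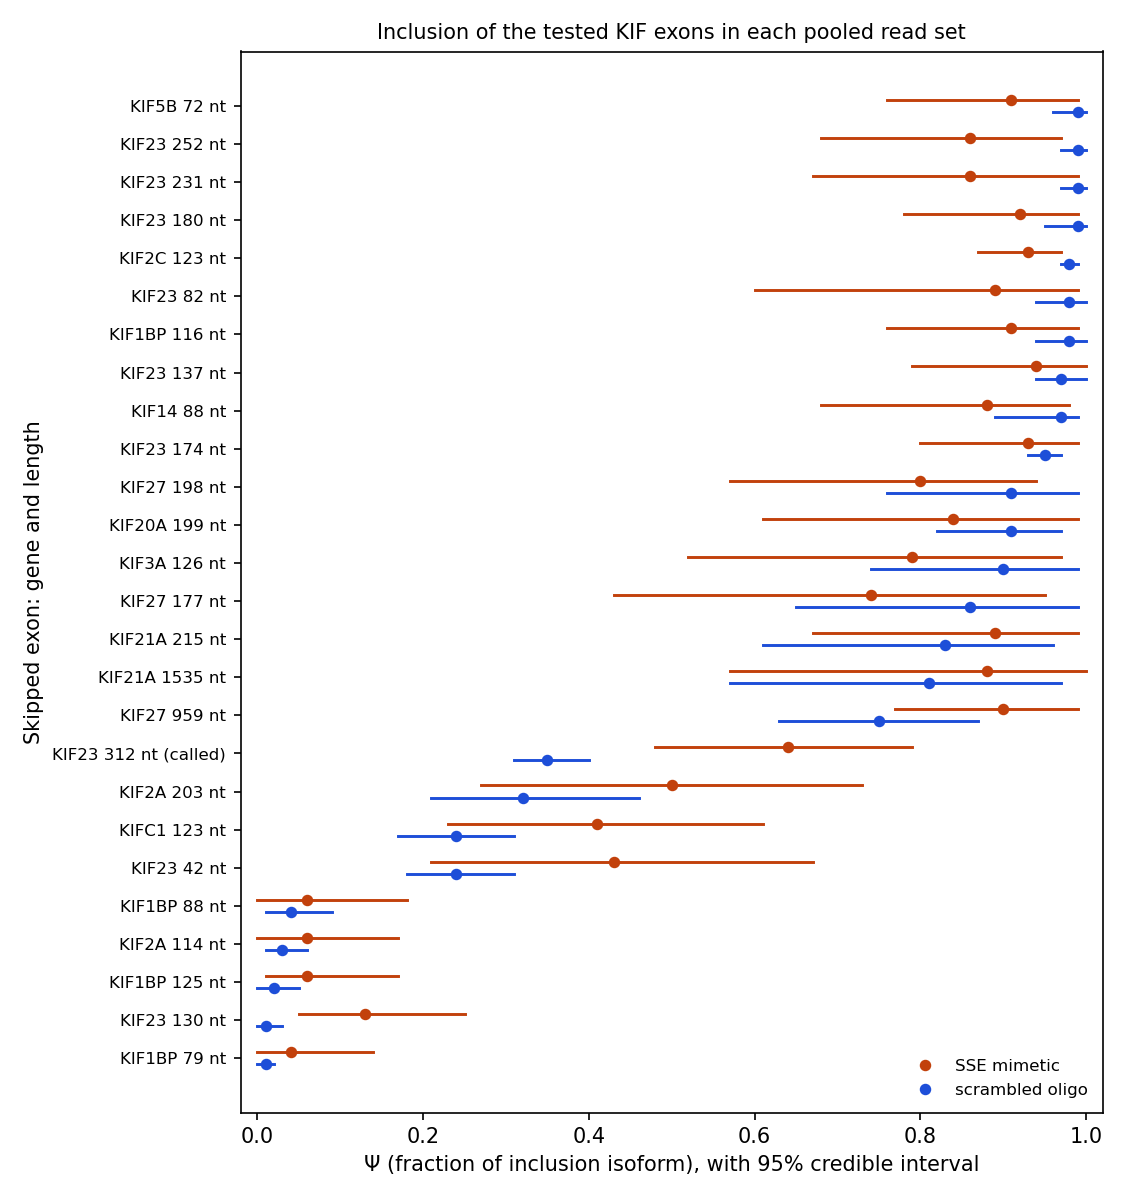
Ψ (horizontal axis, with bars for 95% credible intervals) of the 26 tested KIF exons, named by gene and length in bases on the vertical axis, in the SSE mimetic group (orange) and the scrambled group (blue). Most exons lie near 1 or near 0 in both groups, and intervals are wider under the SSE mimetic, with a median width of 0.295 against 0.07.

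The transport and cilium kinesins were less deeply covered. This list of 26 genes had 60 exons in 20 genes, but only 7 exons in 4 genes met the read minimum. None of the 7 was called or passed Fisher's exact test, and their median difference in Ψ was -0.08. KIF27, related to the cilium motor KIF7, gave the largest positive difference. Its 959-base coding exon (chr9:83903060-83904018) had Ψ of 0.90 (0.77 to 0.99) under the SSE mimetic and 0.75 (0.63 to 0.87) under the scrambled oligo. There were 92 inclusion and 0 skipping reads in the first group and 218 and 4 in the second. The intervals overlapped, and the Bayes factor was 0.91 in the authors' deposited table.

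At the other tested exons of transport kinesins there was at most 1 skipping read in either group. A 177-base exon of KIF27 had Ψ of 0.74 (0.43 to 0.95) and 0.86 (0.65 to 0.99), with 10 and 30 inclusion reads and 0 skipping reads in either group. Another KIF27 exon, of 198 bases, had Ψ of 0.80 and 0.91, with 1 skipping read under the SSE mimetic and 0 under the scrambled oligo. The 126-base exon of KIF3A, a subunit of the kinesin that carries cargo along cilia, had Ψ of 0.79 (0.52 to 0.97) and 0.90 (0.74 to 0.99), from 10 and 24 inclusion reads. For the 177-base KIF27 exon and the KIF3A exon the difference changed sign when the scrambled reads were scaled down, to 0.0137 and 0.0814, so no direction was readable. KIF21A, which restrains microtubule growth at the cell cortex, had overlapping exons of 215 and 1535 bases with Ψ of 0.89 and 0.88 under the SSE mimetic, against 0.83 and 0.81, again without a skipping read. The longer one occurs only in a transcript marked for decay. The difference of 0.06 for the shorter one was 0.00301 when recomputed on the deposited reads and -0.00192 after subtraction of the intron density. KIF5B, the main conventional kinesin of non-neuronal cells, had a 72-base exon with Ψ of 0.91 (0.76 to 0.99) and 0.99 (0.96 to 1.0).

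KIF1BP, outside both lists, had a 116-base coding exon with Ψ of 0.91 and 0.98. Its tested exons of 79, 88 and 125 bases occur in transcripts marked for decay and were mostly skipped, at Ψ of 0.04 to 0.06 under the SSE mimetic and 0.01 to 0.04 under the scrambled oligo.

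Over all 26 tested exons, 12 differences were above 0 and 14 below, with a median of -0.025 against -0.03 over all tested exons. Their sign went with the scrambled Ψ, which is also the value subtracted in each difference, so the pattern is partly built in. A scrambled Ψ under 0.1, with little room to fall, was found at 5 of the exons. Of 16 KIF exons with a scrambled Ψ of at least 0.8, 14 had a negative difference, within a range of -0.13 to 0.07, and 89.0% of the 5192 such exons of all genes were also negative. All 10 KIF exons with a lower scrambled Ψ had a positive difference, as did 77.3% of 3036 such exons of all genes. With the scrambled reads scaled down, 12 of the 16 (43.0% of the 5192) were negative and 8 of the 10 (75.1% of the 3036) were positive. No skipping read was seen in either group at 10 of the 26 exons and at 54.8% of all tested exons.

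**Figure D3:**
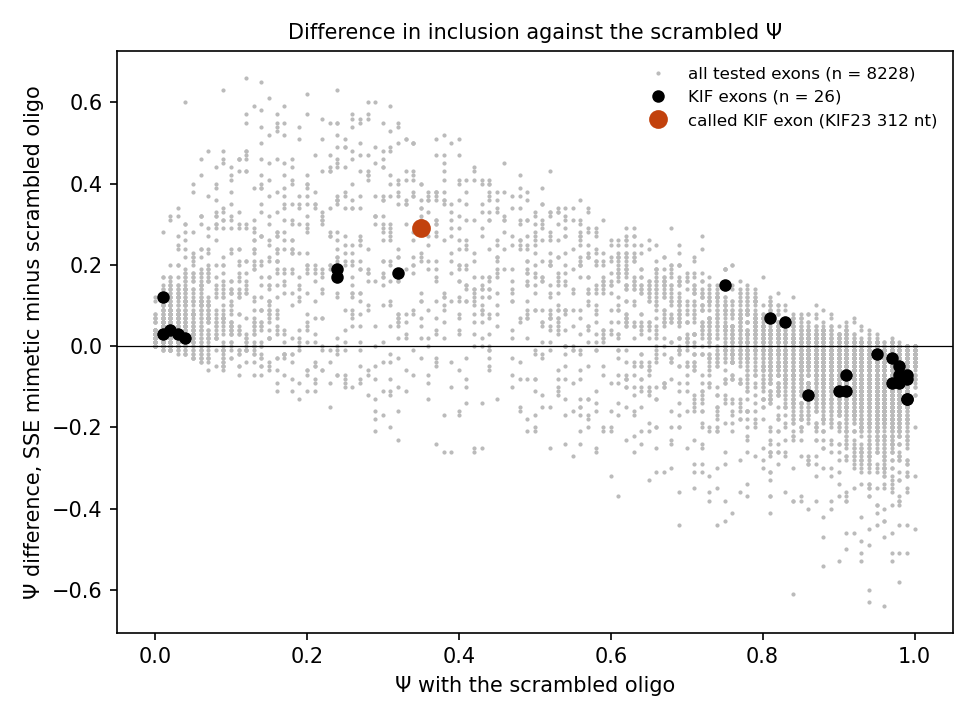
Difference in Ψ (SSE mimetic minus scrambled, vertical axis) against the scrambled Ψ (horizontal axis), for all 8228 tested exons in grey, the 26 KIF exons in black and the called KIF exon in orange. KIF exons at the left lie above 0 and most at the right lie below 0, like the grey points, and the KIF23 312-nt exon is the highest KIF point at 0.29.

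Annotation and length were not used to choose the tested KIF exons. Of the 26, 20 were coding, 5 belonged to decay transcripts and 1 was partly untranslated. Their median length was 134 bases against 157 for all tested exons. In 13 of 26 the length was a multiple of 3, so that skipping keeps the reading frame, against 41.3% of all tested exons.

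The other 62 KIF exons missed the read minimum, 24 of them in the SSE mimetic group alone, 38 in both groups and 0 in the scrambled group alone. None of the 62 met the Bayes factor and difference thresholds together. The untested exons with the highest Bayes factors, named after their values were seen, differed in opposite directions. The KIF13A exon of 120 bases had Ψ of 0.50 (0.22 to 0.80) and 0.11 (0.03 to 0.24), from 5 reads for inclusion and 2 for skipping in the SSE mimetic group, against 4 and 17 in the other. KIF13A moves endosomes and melanosome cargo. The intervals overlapped, and in the authors' deposited table the Bayes factor was 5.79. KIFC3, a minus-end-directed motor, had a 205-base exon with Ψ of 0.29 (0.04 to 0.89) and 0.82 (0.52 to 0.98), a difference of -0.53 with a Bayes factor of 5.69 in the authors' deposited table. It had 0 inclusion and 0 skipping reads under the SSE mimetic and 11 and 0 under the scrambled oligo, and its intervals overlapped. Of the untested KIF1BP exons, 4 share 1 skipping junction, with 3 and 64 skipping reads.

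**Figure D4:**
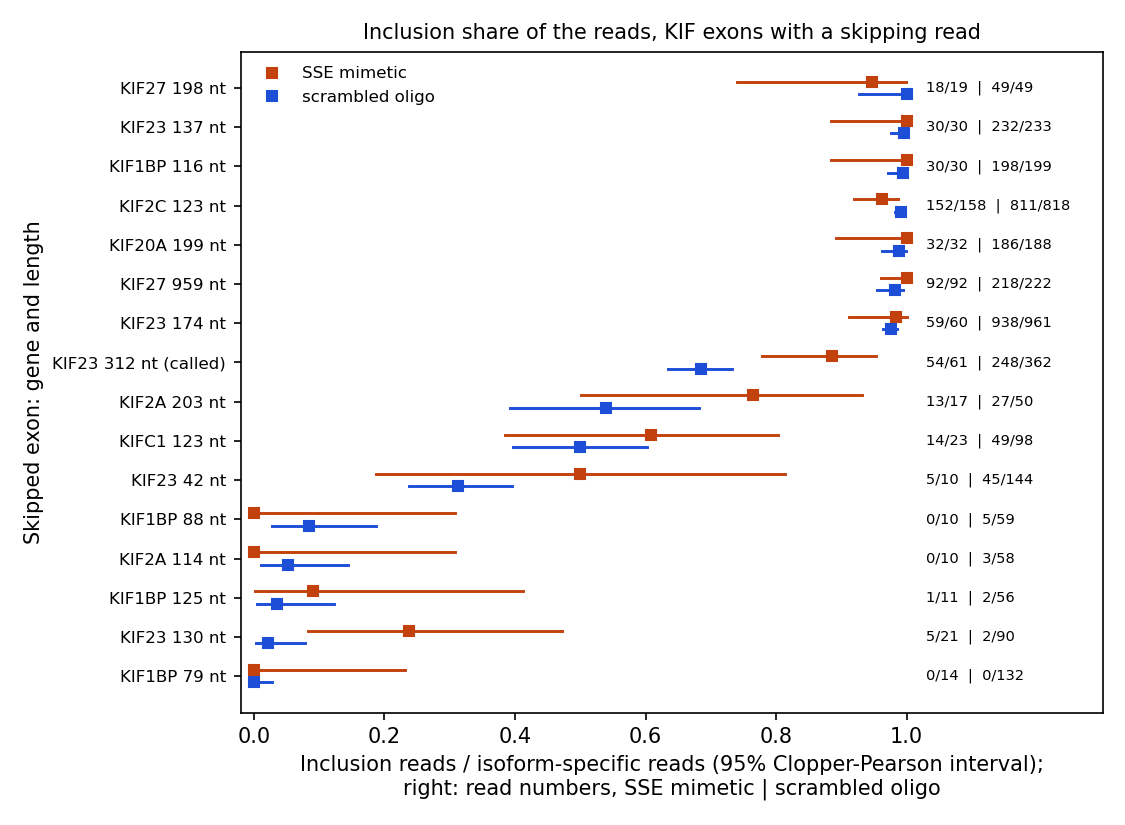
Share of inclusion reads among inclusion and skipping reads (horizontal axis, with exact 95% binomial intervals) for the tested KIF exons that had a skipping read in either group (vertical axis), with orange for the SSE mimetic and blue for the scrambled oligo and the read numbers at the right. The KIF23 312-nt exon has shares of 0.885 and 0.685.

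Genes that act with the kinesins were read the same way. Of 30 kinesin partners and adaptors, 12 genes had 31 tested exons, of which 4 were called higher, 1 lower and 26 not, with a median difference of -0.04 against -0.03 over all tested exons. The called share was 16.1%, against 3.99% of all tested exons, and 3 of the 5 calls were in 1 gene. Of the 4 higher, 3 are exons of PRC1, the midzone bundling protein that recruits kinesins: its 235-base exon had Ψ of 0.79 against 0.24, its 171-base exon 0.90 against 0.51 and its 123-base exon 0.96 against 0.76. The 123-base exon lies within the 235-base one, and none of the 3 had a skipping read. ECT2, the exchange factor that centralspindlin recruits to start furrowing, had a 267-base exon at 0.23 (0.12 to 0.38) against 0.06 (0.04 to 0.09). Its inclusion and skipping reads were 11 and 4 under the SSE mimetic and 20 and 15 under the scrambled oligo, with 212 and 1765 shared reads. The called lower exon, 117 bases of the spindle protein NUSAP1, had Ψ of 0.57 (0.37 to 0.77) against 0.92 (0.88 to 0.96). For NUSAP1 the inclusion and skipping reads were 26 and 2 against 531 and 13, with 59 and 468 shared reads. For both exons the Ψ values thus rest largely on the balance with shared reads.

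The dynein and dynactin list, the minus-end transport machinery, had 36 tested exons in 19 of 32 genes. There, 3 were called higher, 0 lower and 33 not, or 8.33% called against 3.99% of all tested exons, with a median difference of -0.025. The called exons were 147 bases of the dynein heavy chain DYNC1H1 at 0.62 against 0.30, 174 bases of the kinetochore adaptor SPDL1 at 0.57 against 0.23 and 250 bases of the dynein regulator NDEL1 at 0.73 against 0.24. The DYNC1H1 exon had no skipping read in either group, with 39 and 204 inclusion reads. Fisher's exact test, adjusted over all tested exons, passed 0 exons in each of these lists. It could not pass the PRC1 and DYNC1H1 exons, which had no skipping read in either group, and so says nothing about them.

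The reads also give a rough level for each gene, the sum of inclusion, skipping and shared reads of its best-covered event. Here each ratio, SSE mimetic over scrambled, was divided by that of the median of 11308 genes, 0.35, so that 1 is the median gene. Fewer cells in a given state and less RNA per cell cannot be told apart in such bulk samples. Of 20 KIF genes with at least 20 reads over both groups, 0 lay past 2-fold higher, where 17.7% of all genes did, and 4 past 2-fold lower, where 15.8% did. The 4 were KIF23, KIF22, KIF5B and KIF1C.

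KIF23 had the lowest level ratio. Its best event had 96 reads under the SSE mimetic and 1457 under the scrambled oligo, a ratio of 0.188 (0.152 to 0.232) to the median gene. All 9 tested KIF23 exons gave ratios below the median gene, from 0.188 to 0.71, and the best event was the lowest of them. Before division by the median gene's 0.35, the median ratio over the 9 exons was 0.128, against 0.0659 for the best event. The 9 exons share a gene and some reads and are not replicates. Among the genes with at least 20 reads in each group, KIF5B followed with 50 and 341 reads, a ratio of 0.419 (0.305 to 0.565), then KIFC1 with 23 and 128, a ratio of 0.514 (0.314 to 0.805), and KIF20A with 48 and 263, a ratio of 0.522 (0.375 to 0.712). Each of these intervals lay below the median gene. KIF22, a chromosome arm motor, had 12 and 104 reads, a ratio of 0.33 (0.165 to 0.601). KIF1C had 3 and 20, a ratio of 0.429 (0.0816 to 1.45) that spans the median gene.

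At the other end stood transport motors. KIF5C, the neuron-enriched relative of KIF5B, had 89 and 139 reads, a ratio of 1.83 (1.39 to 2.41), and was the 1 KIF gene whose interval lay above the median gene. Of the KIF5C reads, 88 and 138 were shared reads of the flanking exons, of which the downstream one has 3682 bases. Reads matching neither isoform were 28.7 and 40.0 per kilobase of its flanking introns, in the SSE mimetic and scrambled groups. KIF1B, a carrier of mitochondria and synaptic vesicle precursors, had 21 and 35 reads, a ratio of 1.72 (0.949 to 3.03). KIF16B, an endosome motor, and KIF27 followed at 1.23 (0.875 to 1.71) and 1.12 (0.886 to 1.39), with intervals that include the median gene. The KIF16B level rests on 52 and 116 shared reads among 53 and 123, with 42.4 and 63.1 reads per kilobase of flanking intron. Of 8 mitotic kinesins 7 lay below the median gene, with a median ratio of 0.528 and a range of 0.188 to 1.09. Of 11 transport kinesins 5 did, with a median of 1.07 and a range of 0.419 to 1.83. Reads expected from intron density were not subtracted from any level. Their part in the contrast between mitotic and transport kinesins was not tested. The median over the 20 KIF genes was 0.629, and 10 intervals excluded the median gene. Such intervals were computed for KIF genes alone, so that count has no share of all genes to be set against.

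**Figure D5:**
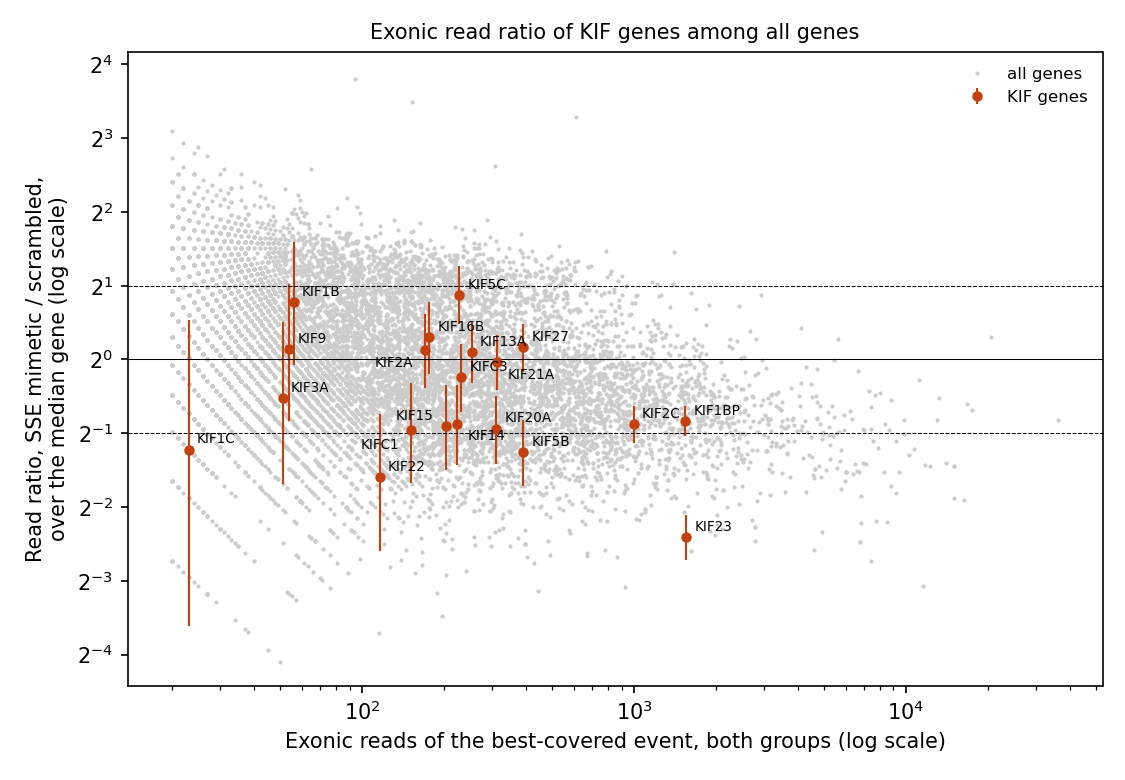
Exonic read ratio, SSE mimetic over scrambled and relative to the median gene (vertical log axis), against the exonic reads of the best-covered event in both groups together (horizontal log axis), with genes in grey and KIF genes in orange with 95% intervals for counting error. KIF23 lies lowest of the KIF genes at 0.188 and KIF5C highest at 1.83, and the grey cloud slopes downward with read number.

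The read ratio fell with read number over all genes, which bears on these levels. Its median was 1.4 among 5086 genes with 20 to under 100 reads, 0.905 from 100 to under 300, 0.747 from 300 to under 1000 and 0.579 among 801 genes with 1000 or more. In the last class, which holds KIF23, 33.7% of genes lay past 2-fold lower. Relative to the total of exonic reads in place of the median gene, which moves every ratio up by 0.45 on the log2 scale, KIF23 stood at 0.257 and KIF22 at 0.451, still past 2-fold lower. On that scale KIF5B and KIF1C were at 0.573 and 0.586, and KIF5C and KIF1B were past 2-fold higher at 2.5 and 2.34. KIF5C and KIF1B lay above 1 and KIF23, KIF22 and KIF5B below 1 under both scalings. In contrast, KIF21A turned from 0.977 to 1.34 and KIFC3 from 0.846 to 1.16. The KIF21A level, from 80 and 234 reads, is that of its 1535-base exon, which occurs only in a transcript marked for decay. The overlapping 215-base coding exon had 21 and 59 exonic reads. Below 1 on the total scale lay 7 of the 8 mitotic and 3 of the 11 transport kinesins.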

How the data were processed

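RNA-seq of 4 MDA-LM2 samples, 2 per group, was deposited as 1 MISO summary per group and 1 comparison between them. Per the submitters' processing notes, STAR 2.7 and hg38 were used; of the MISO version, read length and way of pooling, none was given in the sources used here. Per the file headers, the deposited values are Ψ as a fraction with its 95% interval, read counts by class (inclusion, skipping, shared, neither), the authors' Bayes factor as a ratio, and the difference in Ψ as a fraction; SSE mimetic was sample 1 in all 45977 events.

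Events with the same skipped exon were merged and annotated with GENCODE 29. Exons needed 10 isoform-specific reads in each group. Calls needed a Bayes factor of 10 and a difference of 0.1 or more. P-values, none deposited by the authors, came from two-sided Fisher's exact tests with Benjamini-Hochberg adjustment over all 8228 tested exons at 0.05. A model of 2 isoforms was refitted at a read length of 76, the length that best returned the deposited Ψ. Gene levels needed 20 exonic reads over both groups. Reads were not collapsed by molecular identifiers. Scripts were tested on simulated data and ran on Python 3.11.15, numpy 2.4.6, pandas 2.3.3, scipy 1.17.1 and matplotlib 3.10.9.

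Named exons were those called, passing Fisher's exact test, or meeting both call thresholds below the read minimum, the 6 largest uncalled differences, up to 12 exons with scrambled Ψ of 0.1 to 0.9 and the called exons of each list (up to 5). Named levels were the 4 highest and 4 lowest with 20 reads in each group; other names were added after values were seen. Members and lists were chosen with earlier results of these data known. Read minimum, thresholds, merging, model and scaling were varied. The sequence of the called exon is not reported here.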

Additional observations from a re-analysis of the deposited data

How the results depend on the processing

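The call of the KIF23 312-base exon was present at every read minimum, difference minimum, event set and model version tried, and at Bayes factors of 5 and 100. With a Bayes factor of 5 the number of KIF exons called higher was 2, the second being the KIF23 130-base exon, and with Fisher's exact test in place of the Bayes factor it was 0. The number called lower was 0 under each setting. With reads summed over all events of a gene, 9 KIF genes lay past 2-fold in place of 4. KIF12 and KIF1A were higher, and KIF1BP, KIF1C, KIF20A, KIF22, KIF23, KIF5B and KIFC1 lower. Over all its exons KIF12 had only 3 and 7 inclusion and skipping reads, in the SSE mimetic and scrambled groups. KIF1A had 4 and 0, and KIF1C, on the lower side, 1 and 1. The other reads in these sums were shared reads. With so few reads, no rise is read from KIF12 or KIF1A. Of all genes, 31.2% lay past 2-fold in either direction with summed reads, against 33.5% with the best-covered event. The cause of the change in the KIF number was not tested. In the refitted model, uncalled differences changed sign for the 215-base KIF21A exon (-0.00192 after intron subtraction). With scrambled reads scaled down they did so for the 126-base KIF3A (0.0814), 177-base KIF27 (0.0137), 114-base KIF2A (-0.0182) and 88-base KIF1BP (-0.0331) exons. The KIF1BP difference was also negative in the model on the deposited reads (-0.00448). No paired analysis was possible because the 2 samples of each group are combined in the deposited tables, which also kept single samples from being left out. The 10-read minimum removed 62 of 88 KIF exons.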
